A study of Mus musculus with 4 samples.

Results

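The genes described here are 10 components of the Notch pathway, namely the receptors Notch1, Notch2 and Notch3, the ligands Dll1 and Jag1, the receptor-modifying enzyme Lfng, and the target genes Hes1, Hes5, Hey1 and Hey2. They were taken by name, as all probe sets to which GEO's platform annotation gives 1 of these symbols and no other. This gave 17 of the 45101 probe sets of the array, with at least 1 for each of the 10 genes, out of 18193 genes that have such a probe set. Of these, 9 probe sets for 8 genes had a log2 intensity above 5 on at least 2 of the 4 arrays, which is the filter for tests. The only probe set of Dll1 and both probe sets of Lfng lay below it.

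The data were 4 Affymetrix arrays from ARC/s mouse embryos at embryonic day 8.5, 2 of foregut endoderm and 2 of the remaining anterior tissue, that is heart mesoderm together with the mesoderm and ectoderm of the head (called mesoderm/ectoderm). Per the labels, all embryos had 4 to 5 somites (1 label field starts at 3), and each sample pooled 15 to 20 pieces of tissue. Foregut endoderm 1 and mesoderm/ectoderm 1 were separated by hand alone, whereas both samples numbered 2 were also digested with trypsin and pancreatin. Experiment and way of dissection therefore cannot be told apart, and the second tissue is by its label a mixture of heart and head tissue rather than 1 cell type. No gene was altered and no agent was given in either tissue. The second foregut sample is called ectoderm in 1 description field, against its title, source and tissue labels.

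Notch receptors are membrane proteins that are cut when a Delta or Jagged ligand on a neighbouring cell binds them. The freed intracellular part enters the nucleus, joins the DNA-binding protein RBPJ and switches on genes of the Hes and Hey families, which encode basic helix-loop-helix (bHLH) repressors. Fringe enzymes such as Lfng add sugars to the receptors and so alter which ligands activate them. In the early embryo the pathway is known for holding neural progenitors in an undifferentiated state, for timing somite formation, and for patterning the heart and its vessels.

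Marker genes show what the samples held. All 8 foregut endoderm markers, among them Foxa1 and Shh, were more intense in foregut endoderm in either experiment, with summed intensities of 4847 and 9454 on the endoderm arrays against 266 and 561 on the mesoderm/ectoderm arrays. All 11 neural plate markers were lower in foregut endoderm in both experiments. Sox2, which is also a foregut gene, was at 10.57 and 11.71 log2 units in endoderm and at 11.63 and 11.73 in mesoderm/ectoderm. In experiment 1 all 13 heart muscle markers were higher in foregut endoderm, and in experiment 2 only 1 of them was. Their summed intensity was 14969 in foregut endoderm 1, 1280 in foregut endoderm 2, 133 in mesoderm/ectoderm 1 and 117530 in mesoderm/ectoderm 2, so that the first mesoderm/ectoderm sample lacked heart signal and the first foregut sample carried it. No heart marker was above the filter in mesoderm/ectoderm 1. The 12 endothelial and endocardial markers summed to 924 and 212 in foregut endoderm 1 and 2 and to 271 and 645 in mesoderm/ectoderm 1 and 2. Head mesenchyme markers were all higher in endoderm in experiment 1 (8 of 8) and 4 of 8 were in experiment 2. A probe set is at the floor where it lies within 0.1 log2 units of an array's lowest value.

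Across the 9 kept probe sets, Jag1, Notch3, Hes1, Hey1 and Hey2 were higher in the endoderm sample of each experiment, and Hes5 was lower in both. Hey2 and Hes5 differed most, by 1.93 ± 0.69 and -2.15 ± 1.19 log2 units (difference ± SE, limma), which are 3.82-fold and 4.45-fold. Notch2 lay at nearly the same level in both tissues. In samples of whole tissue, fewer cells of a type and less RNA per cell cannot be told apart.

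None of these differences passed the test. With limma, 0 of 9 member probe sets reached an adjusted p under 0.05, and neither did any of the 13288 kept on the whole array (0.0% higher and 0.0% lower), and the adjusted p of every member was 1.00. At an unadjusted p under 0.05, limma had 2 members higher, Jag1 and Notch3, against 2.97% of all probe sets, and 0 lower against 0.79%. With the replicate number as a block in limma, 4 members were higher at an unadjusted p under 0.05 (Jag1, Notch3, Hes1 and Hey2) against 7.28% of all probe sets, and Hes5 alone was lower against 2.69%. The lowest adjusted p of a member in that fit was 0.410, for Hes5. Nothing in the labels says whether pools of different experiments shared litters. Precision is limited by the number of arrays, 2 for each tissue, and p-values measure only the spread between these pools. Without the block, that spread includes the way of dissection, which differed between the 2 pools of each tissue. With the block, it is the spread between the tissue differences of the 2 experiments.

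Set side by side without a test, the 2 experiments gave 6 of 9 member probe sets higher in foregut endoderm in both, against 35.7% of all probe sets, and 1 lower in both, against 23.8%. Signs were opposite for 2, against 40.5%. At least 2-fold in both experiments, Hey2 was the 1 member on the higher side, against 3.57% of all probe sets, and Hes5 the 1 on the lower side, against 1.0%. Over the whole array 78.1% of the probe sets so far apart were higher in endoderm, a share that was 65.4% after quantile normalization and 62.2% after median centring, and Hey2 and Hes5 stayed 2-fold apart on their sides under both. The tissues did not overlap, with both endoderm arrays higher, for 4 members (Jag1, Notch3, Hey1 and Hey2), against 16.4% of all probe sets, and with both lower for 0, against 9.05%. The median tissue difference of the 9 probe sets was 0.99 log2 units, against 0.10 over all 13288, and the probe sets of Notch1 share a gene. Dll1, below the filter, is in none of these counts. Both its endoderm arrays were below both others, with differences of -2.88 and -0.95 log2 units, so the counts leave out a member on the lower side.

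**Figure D1:**
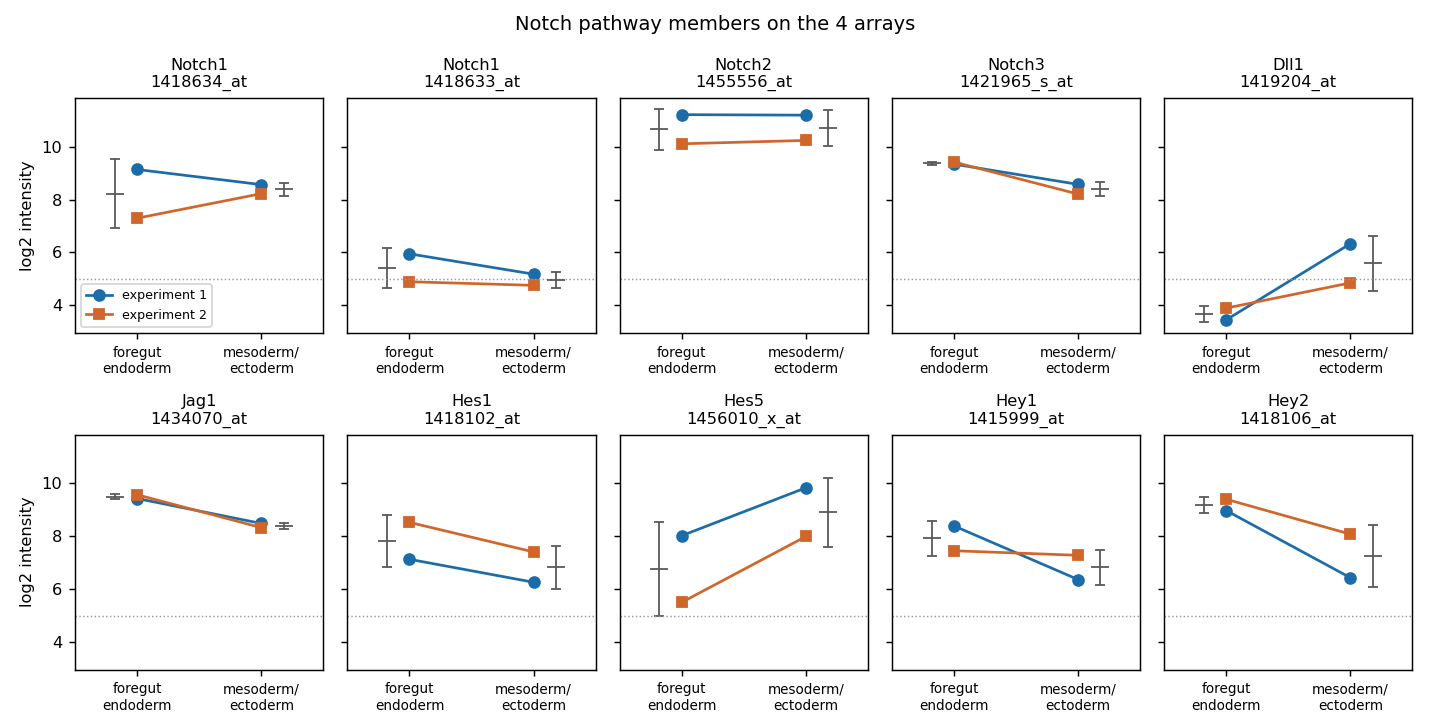
Log2 intensity of the 9 kept member probe sets and of Dll1 in foregut endoderm and in mesoderm/ectoderm, with circles for experiment 1, squares for experiment 2, lines joining arrays of the same experiment, grey bars for mean ± SD (n = 2) and a dotted line at the filter of 5. Jag1, Notch3, Hey1 and Hey2 slope down to the right in both experiments and Hes5 slopes up, while the lines of Notch2 are flat and those of the main Notch1 probe set slope opposite ways.

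Notch1, a receptor widely used in neural and vascular tissue (probe set 1418634_at, gene at chr2:26457902-26503822), was at 9.14 and 7.30 log2 units in foregut endoderm 1 and 2, against 8.57 and 8.22 for the mesoderm/ectoderm arrays. The endoderm arrays thus lay on either side of both others. Its difference was 0.57 in experiment 1 and -0.93 in experiment 2, with a mean of -0.18 ± 0.75 (SE). The dimmer probe set of this gene, 1418633_at, was at 5.95 and 4.89 in endoderm against 5.18 and 4.75, and its differences were 0.77 and 0.14. The probe sets therefore disagreed in sign in experiment 2, although the dimmer one was at -0.05 there after quantile normalization.

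Notch2, a receptor with a broad expression in embryos (probe set 1455556_at, gene at chr3:98013538-98150367), was at 11.21 and 10.11 in foregut endoderm and at 11.19 and 10.24 in mesoderm/ectoderm. The tissues overlapped almost fully, with differences of 0.02 and -0.13, whereas the experiments stood about 1 log2 unit apart in either tissue. The sign of so small a difference hung on the scaling, since it was -0.22 and -0.24 after median centring. The other Notch2 probe set, 1451889_at, never left the floor.

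Notch3, a receptor best known from vascular smooth muscle (probe set 1421965_s_at, gene at chr17:32120820-32166896), was at 9.34 and 9.42 in foregut endoderm, against 8.58 and 8.21 in mesoderm/ectoderm. Both endoderm arrays lay above both others, and the endoderm arrays were 0.08 apart. The mean difference was 0.99 ± 0.33 (SE), made of 0.77 in experiment 1 and 1.21 in experiment 2. The suffix _s_at marks probe sets that can match more than 1 transcript. The other probe set, 1421964_at, stayed at the floor throughout.

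Jag1, a transmembrane ligand that acts in vessels, heart and face (probe set 1434070_at, gene at chr2:137081451-137116520), was even within each tissue. It was at 9.43 and 9.57 in foregut endoderm, against 8.49 and 8.33 in mesoderm/ectoderm, without overlap. The mean difference of 1.09 ± 0.31 log2 units (SE), or 2.13-fold, came from 0.94 and 1.25 in the experiments, and limma gave an unadjusted p of 0.0281. With each array left out in turn it ran from 1.01 to 1.17. The other probe sets of Jag1, 1421105_at and 1421106_at, did not exceed 3.95 on any array, so that only 1 of 3 carried the difference.

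Dll1, the Delta ligand of neural progenitors and presomitic mesoderm (probe set 1419204_at, gene at chr17:15367354-15376932), was at 3.45 and 3.89 in foregut endoderm and at 6.33 and 4.85 in mesoderm/ectoderm. Both endoderm arrays were below both others, and only mesoderm/ectoderm 1 was above the filter, so no test was made. The differences were -2.88 in experiment 1 and -0.95 in experiment 2. Of 10 markers of somites and presomitic mesoderm, none was above 5 on either mesoderm/ectoderm array and 1, Pax1, was in foregut endoderm 2. Pax1 was at 3.90 and 5.18 in foregut endoderm and at 2.28 on both mesoderm/ectoderm arrays. The 10 markers summed to 83.5 and 87.0 in endoderm and to 56.0 and 56.2 in mesoderm/ectoderm. Only 3 of the 10 were higher in endoderm in experiment 1, and 2 in experiment 2. Neural plate markers above the filter numbered 3 on either endoderm array and 10 on either mesoderm/ectoderm array. The part of either tissue in the Dll1 values was not tested.

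Lfng, the fringe glycosyltransferase of the somite clock (gene at chr5:140607341-140615545), gave no usable level. Probe set 1420643_at was at 2.50 and 2.49 in foregut endoderm and at 2.50 and 2.59 in mesoderm/ectoderm, and 1449943_at was at the floor on every array. Whether the transcript was missing or these probes do not report it in this tissue was not tested.

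**Figure D2:**
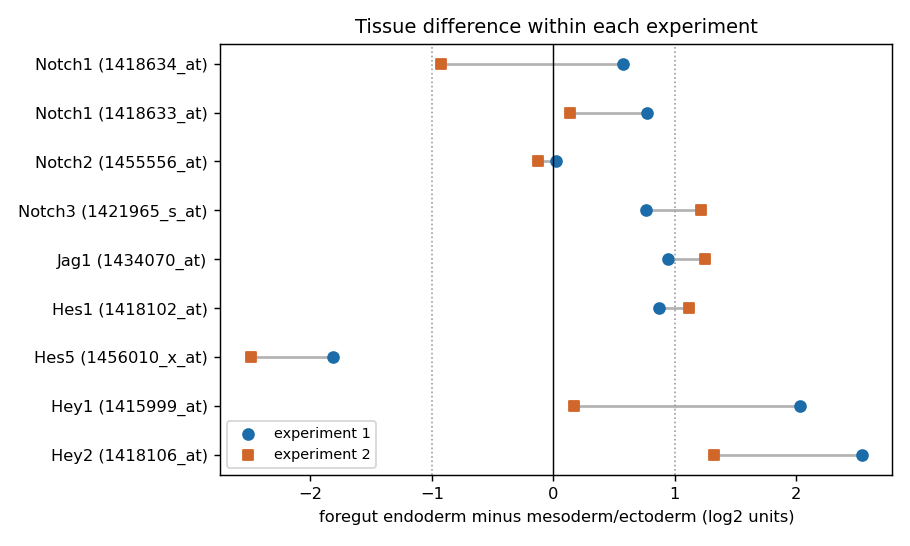
Tissue difference of each kept member probe set, foregut endoderm minus mesoderm/ectoderm in log2 units, within experiment 1 (circles) and experiment 2 (squares), with dotted lines at 2-fold. Hey2 lies beyond the line on the right and Hes5 beyond that on the left in both experiments, and the pairs for Notch3, Jag1 and Hes1 lie close together around 1.

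RBPJ binds DNA at a short core, and the member promoters found to carry it are shown because Hes5 and Hey2 are the members that differed most between the tissues, in opposite directions. RefSeq start windows of GRCm38.p6, each from 250 bases before to 50 after an annotated start, were matched for 8 of the 10 genes, all but Hes1 and Hey1. Each line gives the sense strand from 5′ to 3′, and capitals mark the 7-base core GTGGGAA or its reverse complement TTCCCAC.
Hes5 (chr4:154960673-154960972, plus strand): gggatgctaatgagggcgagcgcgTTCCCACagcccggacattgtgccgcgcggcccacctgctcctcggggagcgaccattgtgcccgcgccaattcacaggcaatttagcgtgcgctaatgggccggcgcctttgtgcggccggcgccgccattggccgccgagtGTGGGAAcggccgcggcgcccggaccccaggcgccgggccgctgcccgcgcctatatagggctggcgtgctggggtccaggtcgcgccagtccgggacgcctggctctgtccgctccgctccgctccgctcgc
Hey2 (chr10:30842734-30843033, minus strand): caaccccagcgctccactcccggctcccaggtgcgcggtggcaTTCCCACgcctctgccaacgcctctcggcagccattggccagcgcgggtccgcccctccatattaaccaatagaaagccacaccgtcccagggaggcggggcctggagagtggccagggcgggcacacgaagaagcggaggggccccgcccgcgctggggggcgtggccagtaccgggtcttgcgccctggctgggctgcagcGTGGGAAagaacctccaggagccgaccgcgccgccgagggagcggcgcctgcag
Lfng (chr5:140607091-140607390, plus strand): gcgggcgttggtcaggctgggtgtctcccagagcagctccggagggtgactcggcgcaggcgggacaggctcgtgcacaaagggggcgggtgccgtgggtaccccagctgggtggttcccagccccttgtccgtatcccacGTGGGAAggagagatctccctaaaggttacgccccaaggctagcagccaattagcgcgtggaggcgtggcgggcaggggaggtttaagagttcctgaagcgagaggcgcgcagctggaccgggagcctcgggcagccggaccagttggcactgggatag
The Hes5 window lies inside the span given for the gene (chr4:154960626-154962372), so its annotated start is not the first base of that span. The Hes5 window held the core at -226 and -83, counted from the start to the first base of the match, and the Hey2 window held it at -207 and -4. In both, the match farther from the start was in reverse and the nearer one forward. Lfng had 1 forward match at -109. The core was found in 3 of 9 member windows, against 6.38% of all 32851 windows of this length, and at least 2 matches stood in 2 of 9, against 0.256%. The windows of Notch1, Notch2, Notch3, Jag1 and Dll1 (2 windows) held no such letters. GC content was 55.7% to 73.0% in member windows, against a median of 52.7%.

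**Figure D3:**
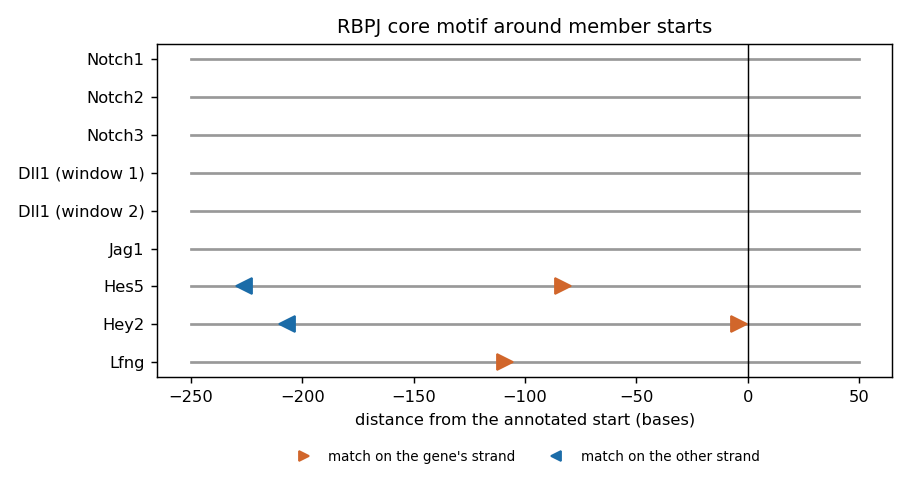
Positions of the 7-base RBPJ core in the start windows of 8 member genes, with distance from the annotated start in bases on the x axis and arrowheads for matches on the gene's strand (pointing right) or the other strand (pointing left). Hes5 and Hey2 hold 2 matches each and Lfng 1.

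Hes5, a bHLH repressor that keeps neural progenitors undifferentiated (probe set 1456010_x_at, gene at chr4:154960626-154962372), was at 8.02 and 5.50 in foregut endoderm and at 9.84 and 7.99 in mesoderm/ectoderm. Within each experiment the endoderm array was lower, by 3.52-fold in experiment 1 and 5.63-fold in experiment 2. Across experiments the tissues touched, as foregut endoderm 1 was 0.03 log2 units above mesoderm/ectoderm 2. The mean difference was -2.15 ± 1.19 (SE; limma, unadjusted p = 0.150), and with the replicate block the SE was 0.30 and the unadjusted p 0.00587.

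Single arrays weighed on the size of this difference: it was -0.89 without foregut endoderm 2, -1.23 without mesoderm/ectoderm 1 and -3.41 without foregut endoderm 1. Hes5 was no longer 2-fold lower in both remaining comparisons without foregut endoderm 2 or without mesoderm/ectoderm 1. Neural plate markers lay in the same direction, 3 of 11 being above the filter on either endoderm array against 10 on either mesoderm/ectoderm array. Sox1, the neural plate factor whose profile over the 4 arrays was nearest to that of Hes5, was at 6.07 and 3.31 in foregut endoderm and at 7.91 and 6.04 in mesoderm/ectoderm. It was picked by that likeness, and the 11 markers did not share 1 profile. Sox1, Zic1, Lhx2 and Pax6 were, like Hes5, lower in experiment 2 in both tissues. Sox2, Hesx1 and Rax were higher there in both, with Hesx1 at 4.49 and 7.40 in endoderm and at 8.12 and 9.52 in mesoderm/ectoderm. Six3, Fezf1, Emx2 and Otx1 differed in direction between the tissues. The part of neural plate content in the Hes5 values was not tested. The second Hes5 probe set, 1423146_at, lay at 2.40 and 2.42 in endoderm and at 2.43 and 3.48 in mesoderm/ectoderm, and the suffix _x_at marks probes that can bind related transcripts.

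Hes1, a bHLH repressor of many progenitor tissues that also acts in gut endoderm (probe set 1418102_at, gene at chr16:30065357-30067796), was at 7.13 and 8.53 in foregut endoderm, against 6.26 and 7.41 in mesoderm/ectoderm. It was higher in endoderm within each experiment, by 0.87 and 1.12 log2 units, although foregut endoderm 1 was below mesoderm/ectoderm 2. The mean of 0.99 ± 0.73 (SE) had an SE of 0.23 with the replicate block in limma. It was 0.30 without foregut endoderm 2, 0.42 without mesoderm/ectoderm 1, 1.57 without mesoderm/ectoderm 2 and 1.69 without foregut endoderm 1. Hes1 and Hes5 thus had opposite signs in both experiments, a pattern read from the values and not tested.

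Hey2, a bHLH repressor known for the ventricular heart muscle and arterial vessels (probe set 1418106_at, gene at chr10:30832359-30842783), was at 8.97 and 9.40 in foregut endoderm, against 6.43 and 8.08 in mesoderm/ectoderm. The tissues did not overlap, and the first mesoderm/ectoderm array was well below the others. Its difference was 2.54 in experiment 1 and 1.32 in experiment 2, or 5.82-fold and 2.50-fold. The mean of 1.93 ± 0.69 (SE; limma, unadjusted p = 0.0544) was 1.11 without mesoderm/ectoderm 1 and 2.76 without mesoderm/ectoderm 2.

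Heart markers and Hey2 ran in the same order on the mesoderm/ectoderm arrays and in opposite order on the endoderm arrays. The heart markers summed to 14969 and 1280 in foregut endoderm 1 and 2, with 12 and 5 of 13 above the filter, against 133 and 117530 in mesoderm/ectoderm 1 and 2. Endothelial markers summed to 924 and 212 in endoderm, against 271 and 645 in mesoderm/ectoderm. The part of heart or vessel tissue in the Hey2 values was not tested.

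Hey1, the related repressor of atrial heart muscle, vessels and somites (probe set 1415999_at, gene at chr3:8663359-8667038), was at 8.39 and 7.45 in foregut endoderm and at 6.36 and 7.28 in mesoderm/ectoderm. There was no overlap, but the gap between foregut endoderm 2 and mesoderm/ectoderm 2 was only 0.17 log2 units. Experiment 1 gave 2.03. The mean of 1.10 ± 0.57 (SE) became 0.63 without foregut endoderm 1 and also 0.64 without mesoderm/ectoderm 1. These are the arrays on which heart and endothelial markers went against the tissue labels, with Kdr at 7.88 in foregut endoderm 1 and 4.78 in mesoderm/ectoderm 1; their part in the Hey1 difference was not tested.

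**Figure D4:**
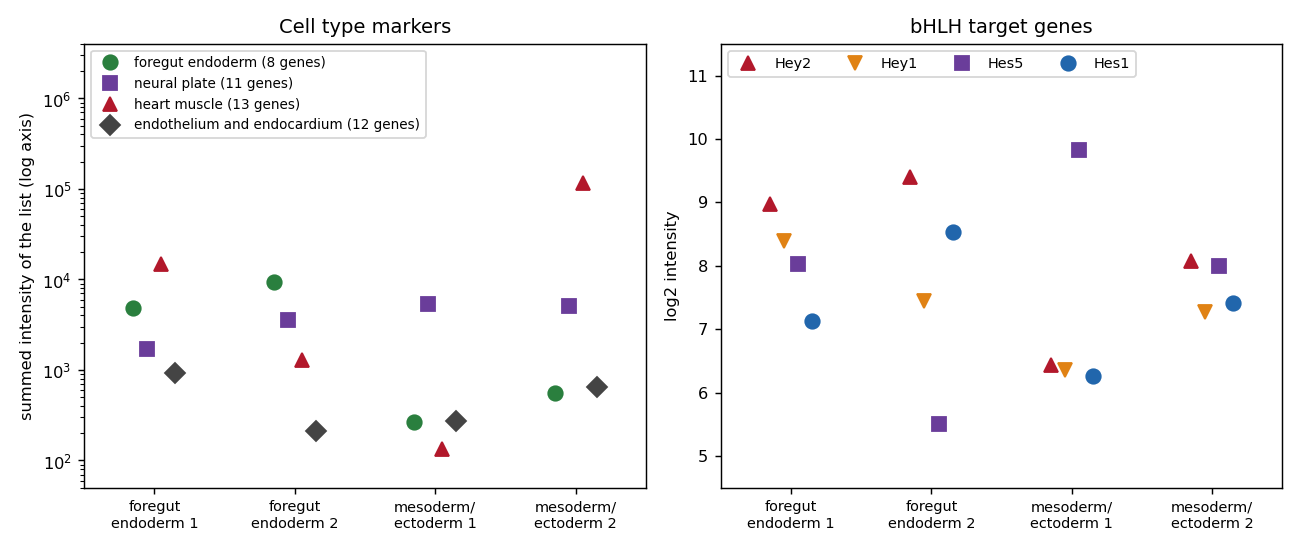
Left, summed intensity (log axis) of 4 marker lists on each array; right, log2 intensity of Hey2, Hey1, Hes5 and Hes1 on the same arrays. Hey2 is highest in foregut endoderm 2, where heart markers sum to 1280, and Hes5 is lowest there and highest in mesoderm/ectoderm 1.

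The experiments set several members apart as much as the tissues did. Second minus first, Hes5 differed by -2.52 in foregut endoderm and -1.84 in mesoderm/ectoderm, and Hes1 by 1.40 and 1.15. These were the 1 member at least 2-fold lower in the second experiment in both tissues, against 7.19% of all probe sets, and the 1 at least 2-fold higher, against 11.4%. Notch2 was lower by a similar amount in either tissue, at -1.10 and -0.96. Hey1 went down in endoderm (-0.94) and up in mesoderm/ectoderm (0.92), while Jag1 hardly differed (0.14 and -0.16). Median sizes over the 9 probe sets were 0.99 log2 units for the mean tissue difference and 1.03 for the mean experiment difference, against 0.33 and 0.61 over all kept probe sets. The latter is the size of the mean shift over both tissues, in which opposite shifts such as those of Hey1 cancel.

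Profiles were also compared with all 7802 kept genes, for members that spanned at least 2 log2 units over the 4 arrays. Likeness was the root mean square distance between log2 values after each gene was centred on its own mean, and with 4 arrays many genes can come close. Nearest to Hes5 were Sox1 (0.11), Zfp423 (0.31) and Nrcam (0.39), a neural cell adhesion gene. Those nearest to Hey2 were Cdc42ep3, Akap2 and Enpep (0.14 to 0.15), and those nearest to Hey1 were Sgms1, Creb3l2 and Mbnl2 (0.11 to 0.14). Acvr2b, an activin receptor, was closest to Hes1 (0.092), followed by Slc44a2 and Hif1an (0.093 and 0.095). Dll1 had no neighbour nearer than Ptprn2 (0.21), with Wnt5b and Astn1 next (both 0.28).

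Outside these 10 genes, 54 further components of the pathway were listed, of which 50 were on the array under 1 symbol and 21 passed the filter. None passed limma's test. Higher in foregut endoderm in both experiments were 10 of 21, against 37.0% of all genes, and 5 were lower in both, against 24.3%. At least 2-fold apart in both were 0 on the higher side, against 3.54% of all genes, and 1 on the lower side, against 1.24%. The median difference of the 21 was 0.16 log2 units, against 0.09 over all genes. The tissues did not overlap for 5 genes higher in endoderm, against 18.2% of all genes, and for 3 lower, against 9.69%.

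The gene on the lower side was Dtx4, a Deltex ubiquitin ligase that acts on Notch receptors. It was at 6.10 and 5.02 in foregut endoderm, against 8.02 and 6.13 in mesoderm/ectoderm (probe set 1455711_at). The differences of -1.92 and -1.12 had the same sign as those of Hes5, and its second kept probe set, 1436545_at, was at -1.34 and -1.43. Numb, an inhibitor of Notch signalling, was at 9.94 and 10.57 in endoderm, against 9.24 and 9.84, so the difference was 0.70 and 0.73.

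Among proteases that cut the receptor, 4 of 5 lay higher in the endoderm of each experiment, against 37.0% of all genes, and 0 of the 5 passed limma's test or were 2-fold apart in both. Adam10, which makes the outer cut after ligand binding, was at 11.49 and 10.99 in endoderm, against 10.30 and 10.19, a difference of 0.99 ± 0.36 (SE). Furin, which cleaves the receptor on its way to the surface, differed by 1.07 and 0.30. Aph1a, a gamma-secretase subunit named outside the rule after its values were seen, differed by 1.61 and 0.85 on its brightest probe set. Its other kept probe sets differed by 0.83 and 0.38 (1424979_at) and by 0.21 and -0.13 (1424980_s_at). Psenen, another subunit also named after the fact, was lower at -0.14 and -0.55.

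Ligand ubiquitin ligases were split, with Mib2 at 1.33 and 0.76 and Mib1 at -0.39 and -0.30. In the nuclear complex, the DNA-binding partner Rbpj (named after its values were seen) differed by -0.28 and 0.25 on its brightest probe set. Its other kept probe set, 1448957_at, was at 0.03 and 0.38. The acetyltransferase gene Ep300 differed by 0.32 and 0.62 and Kat2b by 1.64 and -0.04. Of the glycosyltransferases, Pofut1, which adds the O-fucose that fringe enzymes extend, was at -0.15 and -0.10, and Poglut1 was at 0.65 and -0.02. Of the 29 genes on the array below the filter, 6 were at the floor on all 4 arrays. No other ligand, receptor or proneural factor of the list passed the filter, and those included Dll3, Dll4, Jag2 and Notch4, whose highest values were 2.40, 2.82, 4.26 and 2.61.

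**Figure D5:**
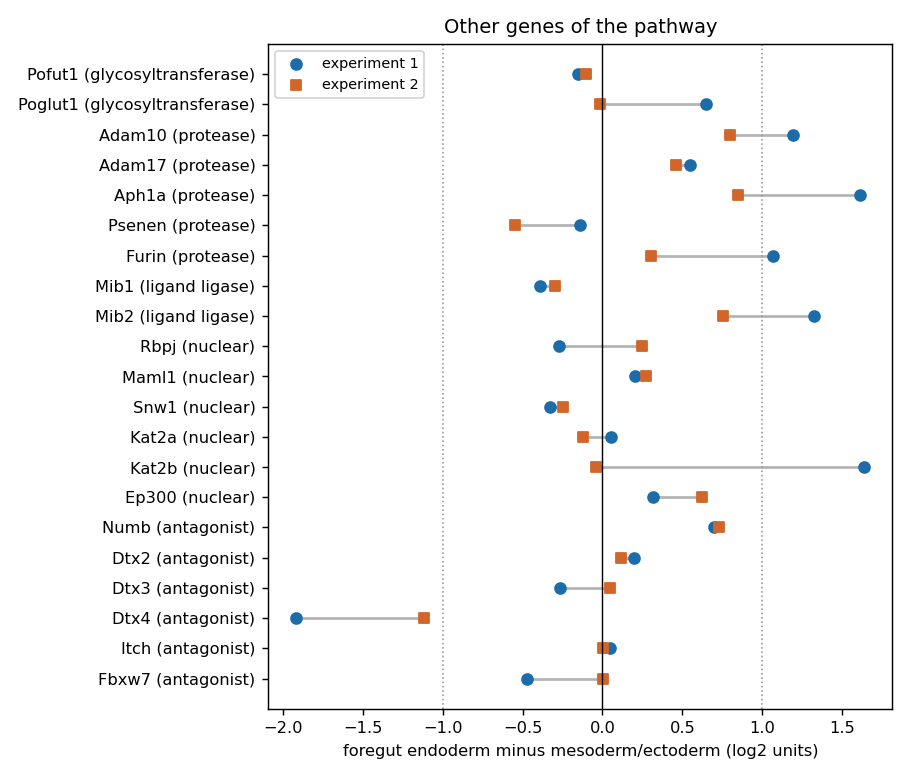
Tissue difference of the 21 other pathway genes above the filter, foregut endoderm minus mesoderm/ectoderm in log2 units, for experiment 1 (circles) and experiment 2 (squares), with dotted lines at 2-fold. Only Dtx4 lies beyond a line in both experiments.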

How the data were processed

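Tissue was measured on Affymetrix mouse MOE430 arrays after 2 rounds of amplification, per the labels' protocols. The deposited values are GC-RMA intensities that the authors obtained from GenePattern (series' design text); the submitters' processing notes name RMA. The scale was read from the values as linear. Versions and parameters are not given in those sources. GC-RMA pulls dim probe sets to a floor, which held 41.4% to 44.8% of the probe sets of an array, so differences among low values shrink.

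Here log2 was taken, 64 controls were left out and 13288 probe sets were kept by the filter. Single arrays had 12470 to 13033 probe sets above the filter's intensity limit, a count not restricted to the kept ones. The tissue difference was fitted in R 4.3.3 with limma 3.58.1 (lmFit, eBayes, two-sided, Benjamini-Hochberg over all kept probe sets, threshold 0.05) without a term for the experiment. The script was tested on simulated data. Samples of the same number were taken as pairs, since the labels' protocols tie each number to 1 way of dissection, and the deviations of same-numbered arrays from their tissue means correlated at 0.56 across probe sets. A gene stands for its probe set with the highest mean. Named were all members, pathway genes 2-fold apart in both experiments, up to 2 per role with the smallest p, and for likeness the 3 nearest genes. No pair of arrays held identical values. Members and lists were chosen with earlier results of these data known. Coordinates and start windows are RefSeq's for GRCm38.p6. Alternatives covered the block, the scaling, the filter, an offset, the fold and each array left out.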

Additional observations from a re-analysis of the deposited data

Results flagged for a closer look

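For 2 probe sets the results had opposite signs in the 2 experiments. The difference of Notch1 (probe set 1418634_at), foregut endoderm minus mesoderm/ectoderm, was 0.573 log2 units in experiment 1 and -0.929 in experiment 2. That of Notch2 (probe set 1455556_at) was 0.0192 and -0.128, both close to 0. With 1 array per tissue and experiment, the difference between the experiments was not tested.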

How the results depend on the processing

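No alternative brought a member past limma's test, in 98 recomputed tissue differences of the 9 probe sets, where the lowest adjusted p was 0.410 with the replicate block. Limma called 0 of all kept probe sets under every alternative too, the paired fit included. The block changed no call at an adjusted p, while at an unadjusted p under 0.05 it moved the members from 2 to 4 higher and from 0 to 1 lower. Fold and overlap counts take no block. Signs held in 94 of the 98, and the 4 reversed values came from leaving out 1 array: Notch1 ranged from -0.0747 to 0.982 (1418633_at) and from -1.10 to 0.743 (1418634_at), and Notch2 from -0.606 to 0.497. The block, the trend option of eBayes and a changed filter leave the estimate as it is, so their signs were fixed beforehand. Only rescaling, the offset or a left-out array could move a sign. The 607 probe sets at least 2-fold apart in both experiments became 353 with the filter at 7, 169 at 4-fold and 1609 at 1.5-fold, and ran from 820 to 1622 with 1 array left out, the lone array then serving both comparisons. The share of them higher in endoderm was 78.1% as deposited, 65.4% after quantile normalization and 62.2% after median centring, and the median difference of all probe sets was 0.10, -0.02 and -0.08. The count of 2 members became 0 at 4-fold and 5 at 1.5-fold and ran from 1 (without foregut endoderm 2) to 4 (without foregut endoderm 1), and Hes5 dropped out of it without foregut endoderm 2 and also without mesoderm/ectoderm 1. The count of 1 other pathway gene became 0 with the filter at 7, 0 with the offset of 16, 0 at 4-fold and 5 at 1.5-fold, and ran from 0 to 3 with 1 array left out. The 4 members without overlap, in alternatives chosen after seeing the data, ran from 5 to 8 with 1 array left out. Leaving out an array can only keep or raise this count, so that range does not measure its stability. With no filter the count became 10, with 4 higher and 6 lower in endoderm. Floor values enter there, but also Dll1, which was not at the floor (3.45 and 3.89 in endoderm against 6.33 and 4.85). After either rescaling Hes5 joined the members without overlap, on the lower side. Fewer genes enter under the stricter filter; other causes were not tested.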
